A study of Homo sapiens with 8 samples.

Results

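The regions described here were stretches of RNA bound by CTCF in senescent human fibroblasts, in protein-coding genes for which the proliferating cells had no listed CTCF peak. A total of 478 senescent peaks in 210 genes met this rule, out of 572 senescent peaks and of 719 peaks in both conditions together. Peaks on the same strand with at most 50 nt between them were joined, which gave 243 sites. Each peak was assigned by overlap on build hg38 to an annotated protein-coding gene, the shortest where it overlapped several, and the gene was kept when no proliferating peak on the same strand as the senescent peak lay anywhere in its span. The members were thus chosen by the measured presence of a senescent peak and absence of a proliferating one, so their counts are a description.

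The cells were IMR90, a line of primary human lung fibroblasts, of wild-type genotype and at passage 5. The growth notes name a pair of isolates of this line, and whether the replicates of a group came from separate cultures or isolates is not given in the sources used here. One group was proliferating and untreated, and the other had been made senescent with a treatment labelled ICM, whose dose and duration are not given in the sources used here. CTCF-bound RNA was measured by eCLIP, in which ultraviolet light crosslinks RNA to bound proteins, RNase shortens the RNA, and immunoprecipitation (here of CTCF) recovers the bound fragments for sequencing. Each group had 2 eCLIP libraries and 2 input libraries made without antibody, and was represented by 1 list of peaks named for both eCLIP replicates.

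CTCF is best known as a zinc finger protein that binds DNA and shapes chromatin loops together with cohesin, and it can also bind RNA. Senescence is a lasting arrest of the cell cycle in which fibroblasts remodel their nuclei and secrete matrix proteins, growth factors and cytokines. Pre-mRNA is transcribed with its introns, so a peak within a long gene can lie in sequence that splicing removes. Whether the sites described here were exonic or intronic was not analysed here.

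No value of single replicates was used, so no SD can be given and no test between the conditions was possible, and the depth of the libraries is unknown. The authors gave each peak a signal value normalised to input, on a scale (linear or log2) that was not stated and with no listed value under 3, and a -log10 p-value against input with a ceiling of 400. These values describe and rank peaks within their list. Intervals in brackets are 95% intervals (Clopper-Pearson for shares, order statistics for medians), and cover counting error only. In a bulk library, more molecules of a transcript and more CTCF per molecule cannot be told apart, and the abundance of the host transcripts was not analysed here.

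The only bases of member sites that could be read came from RefSeq windows around annotated transcript starts (GRCh38.p14, 250 bases before to 50 after each start). Such windows of their own gene covered between 4 and 67 bases of 11 sites in 11 genes. A selection of 6 is shown to place the edge of the site against a nearby annotated start: 4 of them extended across one and 2 began within 50 bases after one, and other sites among the 11 did so too. The annotated start can be an internal one. The middle of the site lay 2818 nt inside the outermost start of the gene in ACADVL, 734 nt in AHDC1 and 287 nt in LAMTOR5, so bases there can belong to a longer transcript. Each run is 30 bases, 5′ to 3′ on the strand of the peak, with bases inside the site in capitals.
TMBIM6, chr12:49741549-49741578, plus strand: ggcgaGTCAGAGCACATCCGGTGTTAGAAG
DVL3, chr3:184155355-184155384, plus strand: gagcgGGCCCGGACGAAGCCCTGGGCCGGG
AHDC1, chr1:27603495-27603524, minus strand: tcaggGCTCCTCCACGACTCCTCTCCTCAG
ACADVL, chr17:7219906-7219935, plus strand: aggggCGCCAGGACGTGGGCGTGCAGGACG
LAMTOR5, chr1:110407649-110407678, minus strand: tggtgGAGAAGGACGTGCCGTGCCGCTGGG
U2AF2, chr19:55655055-55655084, plus strand: gcggcaaggcgaggCGAAAGCTGCACAGGG

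The 5′ edge of the site lay at -3 relative to the annotated start base in TMBIM6, a membrane protein of the endoplasmic reticulum. It lay at -17 in DVL3, a Wnt signal transducer, at -25 in AHDC1 and at -27 in ACADVL, a mitochondrial enzyme of fatty acid oxidation. In LAMTOR5, a subunit of the Ragulator complex on lysosomes, it lay at 21, and in U2AF2, which recognises the polypyrimidine tract of introns, at 34.

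The covered bases of the 11 sites had a GC content between 50% and 77.8%, with a median of 65.5%. The same stretches of the windows of all protein-coding genes had a GC content of 64.8% (the median over genes, averaged over the 11 stretches), and 5 of the 11 sites were above the value of their own stretch. Among 4 motifs searched on the strand of the gene, GGACN was found in 4 of the 11 sites, among them ACADVL, DVL3 and LAMTOR5, and on average 14.2% of all protein-coding windows held it in the same stretches. The motif CCCTC was found in 0 of the 11 sites, against 6.20% of all windows. Likewise, 0 sites held GTGTG, against 3.60%, and 0 held the run TTTTT, against 1.87%. These matches describe letters only, over a few bases per site.

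Among all 20050 placed protein-coding genes, the 210 hosts were 1.05%, a share that the rule itself sets. A further 27 genes had peaks in both lists (0.135%), with 70 senescent peaks in 32 sites, and 33 genes had proliferating peaks alone (0.165%), with 70 peaks in 60 sites. Members made up 87.2% of the 548 senescent peaks in protein-coding genes [84.1% to 89.9%], and hosts 88.6% of the genes with such peaks [83.9% to 92.4%]. The first interval takes peaks as independent, although the 478 member peaks formed 243 sites. The proliferating list was much shorter, with 147 peaks against 572, so fewer genes could hold a proliferating peak. What part this has in the shares was not tested. Widening the gene spans by 5 kb on each side removed no host. For AHNAK, a giant scaffold protein at the membrane, the nearest proliferating peak on the same strand lay 306175 nt outside the span. On the other side of the rule, NIBAN2 and MYLK were left out because of 1 proliferating peak each, with signal values of 3.14 and 3.26, close to the lowest listed value.

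Of 8 fibroblast markers, 4 had a proliferating peak and 1, DCN, had a senescent peak, while 0 of 10 epithelial, endothelial and leukocyte markers had any. Of all protein-coding genes, 1.05% had senescent peaks alone, 0.135% peaks in both lists and 0.165% proliferating peaks alone. At such shares 0 of 10 would be usual for any genes, so the 0 is no check of the cell type. A listed peak also depends on binding as well as on abundance, so the fibroblast markers are a weak check. None of these markers was a host of member sites.

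The site with the highest signal value was in UBE4A, a ubiquitin ligase that extends ubiquitin chains. It consisted of 2 abutting peaks on chromosome 11, at 118384647 to 118384714 with a signal value of 6.14 and at 118384715 to 118384719 with 7.13. ADARB1, an enzyme that edits adenosine to inosine in RNA, followed with a site at 45128178 to 45128245 on chromosome 21 and a signal value of 6.67. MTCL2, which crosslinks microtubules, had a site at 36847268 to 36847354 on chromosome 20 with 6.48, and DDX41, a DEAD-box helicase linked to splicing, a single peak at 177516250 to 177516273 on chromosome 5 with 6.37. These 4 hosts had 1 site each.

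The next sites by signal value were in PDZRN3, a ubiquitin ligase with PDZ domains (6.32), UBR4, a very large ubiquitin ligase of the N-degron pathway (6.31), LPP, a LIM domain protein of focal adhesions (6.31), TUBGCP3, a subunit of the gamma-tubulin complex that nucleates microtubules (6.23), ALPK2, an atypical kinase (6.14), and SRCAP, the ATPase of a chromatin remodeller that exchanges histone H2A variants (6.11). In all, 19 of the 243 sites had a signal value of at least 6, and 54 were under 4. The median site had a signal value of 4.83 [4.72 to 4.97] and a width of 71 nt, with quartiles of 53.5 and 85 nt.

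Signal value and p-value ranked the sites differently. Across the 243 sites, which share their libraries, Spearman's rho between both values was -0.0738, as a description. The 4 sites that reached the p-value ceiling of 400 were in CLSTN1, a transmembrane cadherin-like protein (signal value 4.92), SRRM2, a core scaffold of nuclear speckles (5.24), RTN4, which shapes the tubules of the endoplasmic reticulum (3.24), and IGFBP5, a secreted binding protein of insulin-like growth factors (3.01). The site in IGFBP5 was 2 nt wide, at 216674902 to 216674903 on chromosome 2. By contrast, ADARB1 had a -log10 p-value of 7.01 and UBE4A of 11.3. A total of 148 sites reached a -log10 p-value of 10.

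Within the senescent list, member peaks had lower values than the 70 peaks in genes with peaks in both lists. The median signal value was 4.71 for member peaks (quartiles 3.92 and 5.25) and 5.08 in genes of both lists (quartiles 4.09 and 5.61), and the quartile ranges overlapped widely. Median -log10 p-values were 11.2 for members and 37.5 in genes of both lists, and 6 of 478 member peaks stood at the ceiling against 25 of 70 in genes of both lists. This difference was not tested, because the peaks of 1 list are not replicates and the rule itself separates genes by whether a second list holds them. Sites of several peaks were about as frequent among members (170 of 243, 70.0% [63.8% to 75.7%]) as in genes of both lists (24 of 32, 75% [56.6% to 88.5%]).

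The hosts were long genes. Their median span was 68.6 kb [54.2 to 79.9 kb], with quartiles of 25 and 136 kb. The median over all protein-coding genes was 24.1 kb, with quartiles of 8.53 and 65.0 kb. Of the 210 hosts, 75 (35.7% [29.2% to 42.6%]) were longer than 100 kb, compared with 16.7% of all protein-coding genes, and 23 were at most 10 kb long. Genes with peaks in both lists had a median of 36.5 kb [21.5 to 57.6 kb] and genes with proliferating peaks alone 35.2 kb [10.9 to 63.9 kb]. Both intervals overlapped that of the hosts, and the difference was not tested. A longer span offers more room for a peak, and what part this has in the values was not tested.

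**Figure D1:**
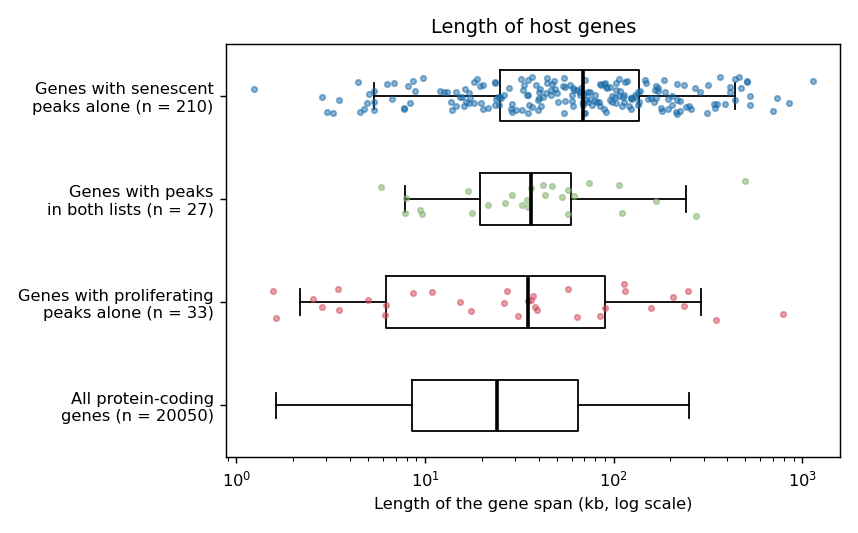
Length of the gene span in kb on a log scale for the 210 hosts of member sites, the 27 genes with peaks in both lists, the 33 genes with proliferating peaks alone and all 20050 protein-coding genes. Points are genes (not drawn for the last group, spread vertically for visibility), boxes run from the lower to the upper quartile with the median as a thick line, and whiskers reach the 5th and 95th percentiles; the median of the hosts, 68.6 kb, lies above the upper quartile of all protein-coding genes, 65.0 kb.

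The longest host was NRG1, a ligand of ErbB receptors, with 1135 kb, followed by KIAA1217 with 853 kb, LPP with 738 kb, NALF1, an auxiliary protein of the NALCN sodium leak channel, with 704 kb, and PALM2AKAP2 with 532 kb. The shortest were C11orf96 with 1.24 kb, the transcription factor gene MSC with 2.85 kb, SAT1, the rate-limiting enzyme of polyamine breakdown, with 3.04 kb, JUN, a subunit of the AP-1 transcription factor, with 3.26 kb, and POLE3, a histone-fold subunit of DNA polymerase epsilon, with 3.52 kb. Each of these 5 short hosts had 1 site. The median signal value of sites was 4.55 [4.14 to 5.07] in hosts of at most 20 kb, 4.76 [4.36 to 4.92] in those over 20 and up to 100 kb, and 4.99 [4.82 to 5.24] in those over 100 kb. The median -log10 p-value ran the other way, with 14.7, 11.3 and 10.9.

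Position along the gene was taken as the middle of the site, in percent of the gene span from its start, in the direction of the peak's strand. The strand of the host was listed for 190 of the 243 sites and matched the strand of the peak in 186. The other 4, in LHX4, PSMD14, SRP19 and UBAP1, lay opposite to it and were left out, which left 239 sites. Their median position was 49.7% [41.6% to 57.8%] of the span. Counts were higher toward both ends than in the inner part: 57 sites (23.8% [18.6% to 29.8%]) lay in the first 20% of the span, 43 (18.0%) in the second, 40 (16.7%) in the third, 32 (13.4% [9.34% to 18.4%]) in the fourth and 67 (28.0% [22.4% to 34.2%]) in the last. The intervals of the fourth and the last stretch did not include the 20% of length that each holds, and that of the first did. Among the 186 sites left at a signal value of at least 4, the share was 15.6% [10.7% to 21.6%] in the fourth stretch and 24.2% [18.2% to 31.0%] in the last, and both intervals included 20%. The intervals take sites as independent, although 26 hosts held several sites.

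**Figure D2:**
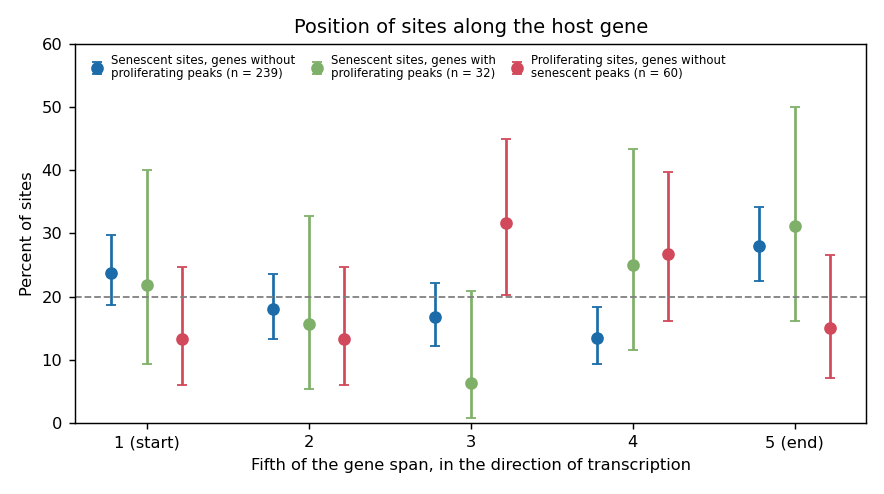
Percent of sites in each 20% of the gene span, from start to end in the direction of transcription, for 239 member sites, 32 senescent sites in genes with peaks in both lists and 60 proliferating sites in genes without senescent peaks. Points are shares, bars are 95% Clopper-Pearson intervals, and the dashed line marks the share of length in each stretch; member sites were lowest in the fourth stretch (13.4%) and highest in the last (28.0%).

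The 32 senescent sites in genes of both lists had shares of 21.9%, 15.6%, 6.25%, 25% and 31.2% from the first to the last stretch, with wide intervals (16.1% to 50% for the last). Their share in the fourth stretch was thus above that of the members and in the third below it, and neither difference was tested. The 60 proliferating sites in genes without senescent peaks had their highest share in the third stretch (31.7% [20.3% to 45.0%]) and 15% [7.10% to 26.6%] in the last. These 60 sites came from 33 genes, 11 of which held several sites, so that they are not independent of each other, and the difference from the member sites was not tested.

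The same counts were taken by the length of the host, with no test between the classes. In the 99 sites of hosts over 20 and up to 100 kb, 29 lay in the first 20% of the span (29.3% [20.6% to 39.3%]) and 31 in the last (31.3% [22.4% to 41.4%]), and 10 in the third (10.1% [4.95% to 17.8%]). In the 95 sites of hosts over 100 kb, 15 lay in the first (15.8% [9.12% to 24.7%]), 24 in the third (25.3% [16.9% to 35.2%]) and 25 in the last (26.3% [17.8% to 36.4%]). The 45 sites in hosts of at most 20 kb had 13, 12, 6, 3 and 11 from the first to the last stretch.

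**Figure D3:**
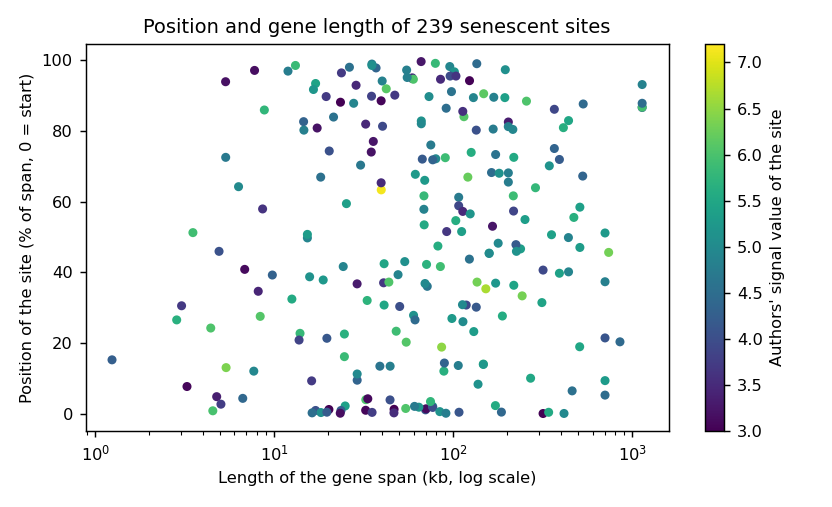
Position of 239 member sites in percent of the gene span (0 is the start) against the length of the span in kb on a log scale; each point is a site and its colour is the authors' signal value. In hosts over 20 and up to 100 kb, 29 of 99 sites lie in the lowest 20% and 31 in the highest, and the 95 sites of hosts over 100 kb are spread over the whole span.

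Measured in nucleotides, 31 of the 239 sites (13.0% [8.99% to 17.9%]) had their middle within 1000 nt of the gene start, and 11 (4.60% [2.32% to 8.09%]) within 1000 nt of the end. Averaged over the 239 sites, so that hosts of several sites count more than once, a window of that size took up 3.8% of the host's span. The gene start used here is the outermost annotated one. Among the 190 sites whose gene had starts listed in the RefSeq windows, 28 lay within 1000 nt and 10 within 100 nt of one of these. Sites within 1000 nt of the start had a median signal value of 4.19 [3.69 to 4.78], and the 197 sites more than 1000 nt from both ends 4.92 [4.82 to 5.12].

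By distance, the site nearest to the outermost start was that of TMBIM6, with its middle 22 nt inside the gene and a signal value of 3.15. In VEGFA, the main growth factor of blood vessels, the site of 3 peaks spanned 43770210 to 43770276 on chromosome 6, with its middle 32 nt from the start, signal values from 4.45 to 4.50 and a -log10 p-value up to 43.0. The middle of the site in CIART, a transcriptional regulator of the circadian clock, lay 36 nt from the start, with 5.98. Other hosts bound close to the start, named after their values were seen, included JUN (249 nt, signal value 3.08), TGFB1, a growth factor that drives matrix production (206 nt, 4.26), and CCNL1, a cyclin that acts in splicing (149 nt, 4.06).

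The 3 sites nearest to the end of their gene were those of EFNB1, a ligand of Eph receptors (200 nt from the end, signal value 5.84), CYBA, a subunit of NADPH oxidase (228 nt, 3.16), and MGRN1, a ubiquitin ligase (282 nt, 3.25). The sites in CYBA and MGRN1 were single peaks of 8 and 4 nt, whereas that of EFNB1 joined 4 peaks over 78 nt.

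Most hosts had a single site: 184 of 210 had 1, 22 had 2, 2 had 3, 1 had 4 and 1 had 5. NALF1 held the 5 sites, spread over the first part of the gene at 5.22%, 9.32%, 21.4%, 37.3% and 51.1% of the span. Their signal values were 4.49, 5.29, 4.11, 4.82 and 5.25, and the gaps between neighbouring sites ranged from 28821 to 112181 nt. NRG1 held 4 sites, all between 86.6% and 93.1% of its span, with signal values of 4.20, 5.94, 4.48 and 4.86 from the 5′ to the 3′ side. The gaps between them ranged from 1034 to 59541 nt, so that the range of gaps overlapped that in NALF1.

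COL5A1, the chain that sets the diameter of collagen fibrils, held 3 sites at 65.5%, 68.1% and 82.5% of its span, with signal values of 4.77, 4.78 and 3.34. ELL2, an elongation factor of RNA polymerase II, had a pair of sites 166 nt apart near its start, at 1.73% and 2.03% of the span with 3.99 and 5.30, and another at 71.8% with 4.34. Among hosts of 2 sites, some pairs lay close together, with 61 nt between them in HFM1, a helicase known from meiosis, 89 nt in EEA1, a tether of early endosomes, and 1508 nt in DDX27, a nucleolar helicase. Others lay far apart, with 78775 nt in SGIP1, a regulator of endocytosis, and 188115 nt in SND1, a nuclease of the RNA-induced silencing machinery. In TGM2, a transglutaminase that crosslinks matrix proteins, the gap was 4788 nt and the signal values were 5.47 and 5.48.

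**Figure D4:**
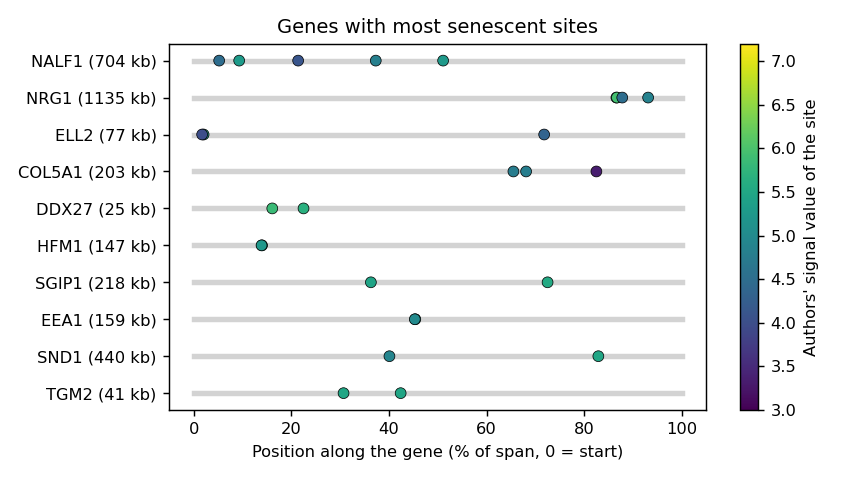
Sites along the 10 hosts with most sites (ties broken by signal value), in percent of the gene span from the start; grey bars are gene spans drawn to equal length, with the length in kb beside the name, points are sites and their colour is the authors' signal value. NALF1 has 5 sites between 5.22% and 51.1%, NRG1 has 4 between 86.6% and 93.1%, and the pairs in HFM1 and EEA1 overlap at this scale.

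The functions of the hosts were read from 14 lists of genes. The lists were written with earlier results of these data known, so their shares are not independent evidence. A total of 84 hosts were in at least 1 list and 126 in none. The lists do not hold every gene of the function they are named for. PDZRN3, MGRN1, SRCAP, MSC, MTCL2 and EEA1, described above, were hosts in no list. Shares are of all genes in a list, beside the background of 1.05% for all protein-coding genes, and no list was tested for enrichment. Over all protein-coding genes, 0.135% had peaks in both lists and 0.165% had proliferating peaks alone. In lists of this size, counts of 0 or 1 in these classes are thus near the shares over all genes. The background counts genes that fibroblasts do not express, so lists of widely expressed genes can exceed it for that reason alone, and this was not tested.

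Splicing and other nuclear RNA processing had the highest share, with 13 of 328 genes (3.96% [2.13% to 6.68%]). Besides DDX41 and DDX27 (signal value 5.85), the highest was PRP4K, a kinase of splicing factors, with 6.04. SF1, which binds the branch point, had 5.82 and SRRM2 5.24. ACIN1 had 4.36, THRAP3 4.60, SCAF1 4.55, U2AF2 4.19, CCNL1 4.06, RSRP1 3.96 and the helicase DDX5 3.63. A further 4 genes of the list, HNRNPD, MATR3, PNN and SFPQ, had peaks in both lists (0.135% over all protein-coding genes). With proliferating peaks alone there were 0, which is near the 0.165% over all protein-coding genes. These genes had been noted in earlier results of these data, so their number is not independent evidence.

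Matrix proteins and enzymes other than collagens had 7 of 206 genes (3.40% [1.38% to 6.88%]). The highest were NID2, a basement membrane linker (5.19), LAMB2, a laminin chain (4.76), and LOXL2, which crosslinks collagen (4.73), followed by TGFB1 (4.26), PLOD1 (3.66), TGFBI (3.20) and IGFBP5 (3.01). A further 3 genes of this list were in both lists and 3 had proliferating peaks alone. Among 44 collagen genes, COL5A1 alone was a host (2.27% [0.0575% to 12%]), COL6A2 had peaks in both lists, and 6 had proliferating peaks alone: COL1A1, COL1A2, COL3A1, COL4A1, COL4A2 and COL6A3. Fibroblasts are main makers of the fibril-forming collagens among these, such as COL1A1, COL1A2 and COL3A1.

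The cytoskeleton list had 9 of 337 genes (2.67% [1.23% to 5.01%]), with TUBGCP3 (6.23), NAV1, a microtubule-binding protein (5.80), and MYO9B, a myosin with a RhoGAP domain (5.14), highest. The others were AHNAK (5.01), SPTBN1 (4.94), TRIO (4.33), DYNC1H1 (3.66), DYNLL1 (3.46) and VCL, the focal adhesion protein vinculin (3.03). Here 5 genes were in both lists and 7 had proliferating peaks alone, among them FLNA, LMNA and ACTG1.

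Chromatin and transcription machinery had 8 of 358 genes (2.23% [0.970% to 4.36%]), led by DNMT3A, a de novo DNA methyltransferase (6.08), BRD1, a scaffold of histone acetyltransferase complexes (6.08), and CHD8, a chromatin remodeller (5.68). The translation list had 5 of 227 (2.20% [0.719% to 5.07%]), with EIF4A2, a helicase of translation initiation (4.99), SARS1, the seryl-tRNA synthetase (4.89), and EIF3A (3.69) highest. The site of EIF4A2 lay within the small nucleolar RNA gene SNORA4, which is encoded in this host. That of RPL4 (3.10) lay within SNORD18B, so it is uncertain for these 2 hosts which RNA was bound.

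Vesicle transport and the endoplasmic reticulum had 10 of 498 genes (2.01% [0.967% to 3.66%]), with AP1M1, an adaptor of clathrin coats (5.89), RAB7A, the GTPase of late endosomes (5.65), and SEC31A, a coat protein of vesicles leaving the endoplasmic reticulum (5.60), highest. The ubiquitin list had 10 of 551 (1.81% [0.874% to 3.31%]). Highest among these 10 were UBE4A, UBR4 and USP11, a deubiquitinase with 2 sites (4.91 and 5.31). The ubiquitin ligases PDZRN3 (6.32) and MGRN1 (3.25) were hosts too, but the list does not hold them. Of the 10, PSMD14 and UBAP1 held sites opposite to their listed strand. The site of KCTD2, another of the 10, overlapped a tRNA gene, so it is uncertain which RNA was bound there. Neither list had a gene with peaks in both lists, and the vesicle list had 1 and the ubiquitin list 0 with proliferating peaks alone. These counts are near the shares over all protein-coding genes, 0.135% and 0.165%.

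Other lists were near the background. Kinases and signalling had 8 of 593 (1.35% [0.584% to 2.64%]), with HIPK2, a stress kinase that acts on p53 (5.88), PPP1R21 (5.77) and PRKCA, a protein kinase C (5.48), highest. Sequence-specific transcription factors had 8 of 931 (0.859% [0.372% to 1.69%]), with ZNF638 (5.61), ZNF804A (5.54) and TEAD1, the partner of YAP (5.50), highest. The site of ZNF804A had its middle 1223 nt from the start of a span of 341 kb. The nuclear pore and envelope list had 1 of 82, XPO1, the main nuclear export receptor (4.72).

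The senescence list of secretory and inflammatory genes had 3 of 218 (1.38% [0.285% to 3.97%]): IL6ST, the shared receptor subunit of the interleukin 6 family (6.03), VEGFA (4.50) and IGFBP5 (3.01). In IL6ST the 3 abutting peaks differed, with signal values of 3.21, 3.35 and 6.03 from the 3′ to the 5′ side. Cell cycle and DNA repair had 1 of 193, POLE3 (5.92), and mitochondria and metabolism 1 of 351 (0.285% [0.00721% to 1.58%]).

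**Figure D5:**
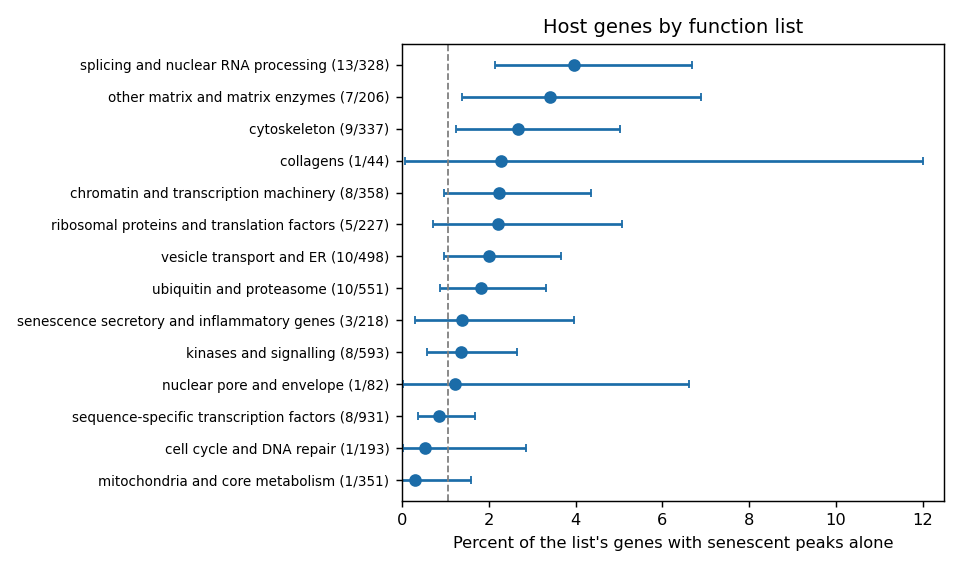
Percent of the genes of each of 14 function lists that were hosts of member sites, with 95% Clopper-Pearson intervals; the number of hosts and of listed genes stands beside each name, and the dashed line marks the 1.05% of all protein-coding genes that were hosts. The highest shares were those of splicing and nuclear RNA processing (3.96%), other matrix and matrix enzymes (3.40%) and the cytoskeleton (2.67%). No list was tested, and the lists were written with earlier results of these data known.

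For 2 of the 4 sites opposite to their listed host, another protein-coding gene on the strand of the peak overlapped the site: ACBD6 for the site assigned to LHX4 and REEP5 for that assigned to SRP19. For PSMD14 and UBAP1 there was no such gene with a listed strand. Another site over a small RNA gene lay in KCTD2, over the tRNA gene TRR-CCT1-1, with a signal value of 3.09.

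Hosts were found on all chromosomes with placed protein-coding genes other than Y and the mitochondrial genome. The promoter windows of the 167 hosts that had one in the RefSeq table held a median of 67.7% GC [66% to 69%], against 62.7% over all protein-coding genes with a window and 69.7% [63.3% to 78.3%] in 21 genes with peaks in both lists. CCCTC, a stretch of the core CTCF motif in DNA, was found on either strand in 82.6% [76.0% to 88.1%] of the windows of hosts, in 85.7% of those of genes in both lists and in 76.6% of all. A window richer in G and C holds this motif more often, and the part of base composition in these shares was not tested.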

How the data were processed

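A peak list for each of the 2 conditions was analysed. The authors deposited, per the file headers, peaks on build hg38, normalised to input, in lists named for replicates 1 and 2; each was taken as the joint list of its 2 eCLIP libraries. The deposited signal value is a score whose scale was not stated, and the deposited -log10 p-value stops at 400. The aligner, peak caller, joining of replicates, thresholds and depth are not given in the sources used here. Peaks were assigned to 20050 protein-coding genes of a RefSeq table of the same build (GRCh38.p14), and gene strand and start were taken from RefSeq promoter windows, given for 15843 of them. Counting used Python 3.11.15 with pandas 2.3.3 and scipy 1.17.1, checked on simulated peaks. Shares carry exact binomial intervals (level 95%); no test was run, since each condition is 1 list. Genes were named by rule: the 10 hosts with the highest signal value, the 10 with most sites, the 5 longest and 5 shortest, the 3 highest of each function list, and the 3 sites nearest each end. Members, lists and rules were chosen with earlier results of these data known. Alternatives changed the gene assignment, merging distance, thresholds, strand and span rules. Sequence outside promoter windows was not used here.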

Additional observations from a re-analysis of the deposited data

How the results depend on the processing

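Across 24 results, 138 alternative values were computed under 11 settings, 1 of them (leaving out peaks opposite to the listed strand) chosen after seeing the data. In 131 the value stayed within its interval or within 1.5 times the count, 7 moved, and 0 reversed. Requiring a -log10 p-value of at least 10 left 273 peaks, 148 sites and 132 genes and moved 4 list counts. Chromatin fell from 8 to 3 genes, transcription factors from 8 to 4, vesicle transport from 10 to 6 and signalling from 8 to 4. Splicing fell from 13 to 12 and translation stayed at 5, and why the lists differed was not tested. The median host length ranged from 61.3 to 76.8 kb, the share of sites in the first 20% of the span from 23.1% to 27.6% and in the last from 24.2% to 29.1%, and that within 1 kb of the start from 10.2% to 13.3%. At a signal value of at least 4 the intervals of the fourth and the last stretch came to include 20%, and at a -log10 p-value of at least 10 that of the first (27.6% [20.5% to 35.6%]) no longer did. A proliferating peak on either strand, or within 5 kb of the span, removed no further host. No paired analysis was possible because neither list gives values of single replicates, and leaving out each replicate was not run for the same reason. The unknown depth limits what the absence of a proliferating peak means: a gene without a listed peak may have been bound below the authors' threshold.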

Other observations

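Several hosts outside the function lists encode secreted ligands and their antagonists. They were picked after their names and values were seen, and they were not tested. FGF2, a growth factor of fibroblasts, had 1 site with a signal value of 4.65, INHBA, the activin A subunit, 4.05, BDNF, a neurotrophin, 4.18, WNT5A, a ligand of non-canonical Wnt signalling, 2 sites with at most 3.5, and DKK3, a secreted protein of the Dickkopf family, 3.01. TFPI2, an inhibitor of serine proteases in the matrix, had 4.70. Both cytosolic HSP90 genes were hosts: HSP90AA1 had 2 sites 98 nt apart near its end (94.8% and 95% of the span, signal values 3.46 and 3.63), whereas the site of HSP90AB1 lay at an annotated start. Proteoglycans of the cell surface were also present, with GPC1 (2 sites, at most 3.46) and SDC3 (3.93).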
